A study of Mus musculus with 41 samples.

Results

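A set of 10 formative and primed pluripotency genes, which mark the passage of mouse embryonic stem cells out of the naive state, was followed through all peak lists of the series, out of the 21698 protein-coding genes with a unique symbol on chromosomes 1 to 19 and X. The members are the transcription factors Otx2, Pou3f1, Zic2 and Lef1, the chromatin-bound factor Utf1, the growth factor Fgf5, the DNA methyltransferase family members Dnmt3a, Dnmt3b and Dnmt3l, and the RNA-binding protein gene Lin28b. For each gene, peaks of 4 histone post-translational modifications (hPTMs) were taken over its promoters, 2 kb on each side of every annotated transcription start site (TSS), and over a wider window of the gene body with 20 kb on each side. A promoter was called when it overlapped a peak by at least 1 bp, and the strength of a peak is given as the percentile of its total signal among the peaks of its own list, with 100 as the strongest.

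Naive stem cells resemble the inner cell mass of the early blastocyst, and on leaving that state they pass through a formative stage that resembles the early epiblast before becoming primed for the germ layers. OTX2 and POU3F1 (also called OCT6) direct the rewiring of enhancers at this exit, FGF5 is the classical epiblast marker, and DNMT3A and DNMT3B with the inactive cofactor DNMT3L add the DNA methylation that naive cells largely lack. LEF1 is the DNA-binding partner of beta-catenin in WNT signalling, ZIC2 is a zinc finger factor at epiblast enhancers, UTF1 is bound to chromatin in pluripotent cells, and LIN28B blocks the maturation of let-7 microRNAs. Of the marks, H3K4me3 lies at promoters, H3K27ac at active promoters and enhancers, and H3K27me3 is laid down by the Polycomb complex PRC2 over repressed developmental genes, whereas H3K18la, the lactylation of lysine 18 of histone H3, is the mark the study set out to map.

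CUT&Tag, in which a tethered transposase cuts DNA at an antibody-bound mark, had been run on 41 samples that fall into 24 combinations of cell type and mark. E14 mouse embryonic stem cells were kept with LIF, and were either in serum-containing medium, called mESC-ser, or in 2i, a medium with inhibitors of MEK and GSK3, called mESC-2i. The other samples were primary myoblasts (MB) and the myotubes (MT) formed from them, BMDM, which are macrophages grown from bone marrow, the whole gastrocnemius muscle (GAS), macrophages sorted from muscle after hind-limb ischemia (PIM) and white adipocytes (ADIPO). These came from mice labelled C57BL/6, and every sample carries the treatment label control. The study's methods give adult females of C57Bl6/J for the mouse biopsies, while its culture methods for MB, MT and BMDM give neither sex nor strain. ADIPO nuclei came from AdipoCre-NuTRAP mice, in which Cre active in adipocytes tags their nuclei, and were captured on streptavidin beads. The buffers of all groups contained sodium butyrate, an inhibitor of histone deacetylases. H3K18la was mapped in all 8 cell types, H3K4me3 in mESC-ser, mESC-2i, GAS and PIM, H3K27ac in mESC-ser, GAS, BMDM, PIM and ADIPO, and H3K27me3 in all but ADIPO. Stem cells entered the protocol as whole cells and every other sample as nuclei, so this step and the cell type cannot be told apart. GAS is a tissue with several cell types, in which fewer marked cells and less mark per cell cannot be told apart.

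Each combination came as 1 list, called on the pooled replicates of 17 groups and on the only sample of the other 7, among them H3K27ac in mESC-ser and both marks in MB. No list therefore has a replicate, no difference below has a test, and counts are read against the same count over all protein-coding genes. The mESC-ser lists of H3K4me3 and H3K27me3 do not name their medium and were matched by exclusion of the 2i lists, which every comparison of the media for these marks rests on. The lists held between 11002 and 36813 peaks on the chromosomes used, and the smallest total signal admitted to a list ranged from 7180 in GAS H3K4me3 to 122245 in mESC-ser H3K4me3, so a missing peak means a different level in each list. The lists carry no read depth, and depths were not used here. For the marker genes of the labelled cell types, an H3K18la promoter peak was called at 3 of 3 pluripotency genes in both stem cell lists and at 0 of 3 in every other cell type. H3K18la was also called at 4 of 4 macrophage markers in BMDM and PIM, at 4 of 4 adipocyte markers in ADIPO, and at 5 of 5 muscle markers in MT against 2 of 5 in MB. GAS had 4 of 5 muscle markers. Markers of other cell types were called in every H3K18la list: in GAS 3 of 3 for endothelium, 3 of 3 for fibroblasts and 2 of 4 for macrophages, in MT 3 of 4 for macrophages and 2 of 3 for fibroblasts, in ADIPO 2 of 3 for fibroblasts and 2 of 4 for macrophages, and in BMDM and PIM 2 of 3 for endothelium. PIM also had 2 of 4 for adipocytes, every other such count was 1 or 0, and the part of these signals in the values below was not tested.

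**Figure D1:**
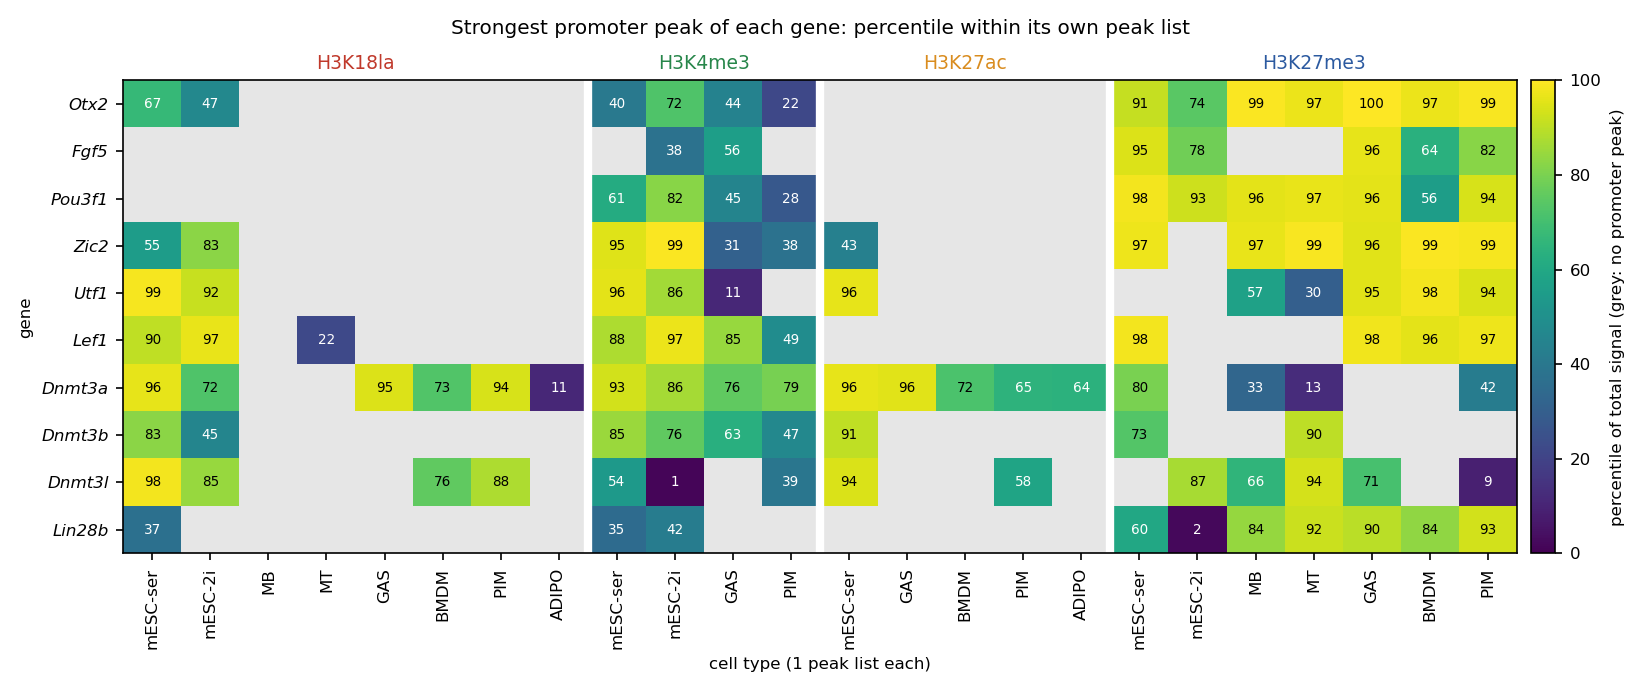
Percentile of total signal of the strongest promoter peak of each of the 10 genes (rows) in each of the 24 lists (columns, grouped by mark), with grey where no promoter peak was called. H3K18la colours the 2 stem cell columns, and elsewhere the Dnmt3a and Dnmt3l rows and Lef1 in MT, while H3K27me3 fills most columns of the other cell types.

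The gene models are those of GENCODE on GRCm38, the build of the files (mm10). Otx2 lies on chromosome 14 at 48657677-48673819 on the minus strand and starts at 10 annotated sites, and Zic2 lies on the same chromosome at 122475435-122479852 on the plus strand. Fgf5 lies on chromosome 5 at 98254184-98277030, Pou3f1 on chromosome 4 at 124656807-124660655, Utf1 on chromosome 7 at 139943789-139945112 and Lef1 on chromosome 3 at 131110471-131224356, all on the plus strand. Dnmt3a spans 108437 bp of chromosome 12 from 3806007, Dnmt3b 38281 bp of chromosome 2 from 153649450 and Dnmt3l 21676 bp of chromosome 10 from 78041947, all on the plus strand, and Lin28b spans 109776 bp of chromosome 10, 45376620-45486395, on the minus strand. Several windows hold promoters of neighbours: Zic5, 9758 bp from the Zic2 start, Aire, 570 bp from the main Dnmt3l start, Kndc1 beside Utf1, and the opposite-strand transcripts Otx2os1, Dnmt3bos and Gm43352 at Otx2, Dnmt3b and Lef1. A broad peak there cannot be given to 1 of the genes.

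RefSeq promoters (GRCm38.p6, from 250 bases before to 50 bases after a start site) were found for 8 of the 10 genes, with 18 entries in all, and not for Pou3f1 and Zic2. A promoter is shown for 6 of these genes, to set start sites with many CpGs beside those with few, with every CpG in capitals. The promoter of the long Dnmt3a isoform, chr12:3806730-3807029 on the plus strand, held 46 CpGs in its 300 bases at a GC content of 82.3%, and that of the short isoform (Dnmt3a2, the main form in stem cells), chr12:3891494-3891793, held 18 at 74% GC.
Dnmt3a long isoform: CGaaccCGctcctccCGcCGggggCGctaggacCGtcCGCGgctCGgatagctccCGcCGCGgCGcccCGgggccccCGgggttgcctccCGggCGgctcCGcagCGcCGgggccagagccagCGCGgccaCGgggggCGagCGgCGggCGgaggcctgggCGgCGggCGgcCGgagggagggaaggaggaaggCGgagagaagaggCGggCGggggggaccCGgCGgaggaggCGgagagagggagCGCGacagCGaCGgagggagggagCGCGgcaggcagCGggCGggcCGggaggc
Dnmt3a short isoform: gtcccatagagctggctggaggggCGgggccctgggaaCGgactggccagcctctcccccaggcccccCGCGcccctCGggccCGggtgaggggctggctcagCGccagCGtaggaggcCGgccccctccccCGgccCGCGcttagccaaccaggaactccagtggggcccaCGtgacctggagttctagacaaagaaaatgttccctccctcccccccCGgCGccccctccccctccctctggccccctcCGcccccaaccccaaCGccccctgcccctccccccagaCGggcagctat
Dnmt3b (chr2:153649199-153649498, plus strand) held 30 CpGs and Fgf5 (chr5:98253934-98254233, plus strand) held 29, and their mark patterns differ below.
Dnmt3b: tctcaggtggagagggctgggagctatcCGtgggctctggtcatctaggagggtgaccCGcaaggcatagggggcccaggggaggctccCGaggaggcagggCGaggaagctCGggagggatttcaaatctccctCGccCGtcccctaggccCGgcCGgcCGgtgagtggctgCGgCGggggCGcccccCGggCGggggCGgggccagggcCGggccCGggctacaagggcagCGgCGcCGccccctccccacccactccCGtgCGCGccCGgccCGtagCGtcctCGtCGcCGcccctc
Fgf5: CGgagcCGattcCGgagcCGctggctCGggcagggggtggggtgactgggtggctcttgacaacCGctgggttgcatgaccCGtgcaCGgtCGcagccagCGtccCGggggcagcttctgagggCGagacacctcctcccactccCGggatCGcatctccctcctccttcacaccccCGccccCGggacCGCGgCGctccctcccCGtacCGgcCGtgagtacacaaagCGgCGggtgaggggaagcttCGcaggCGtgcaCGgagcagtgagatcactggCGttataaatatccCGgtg
The middle of the 3 Dnmt3l promoters (chr10:78049592-78049891, plus strand), where H3K4me3 was called in stem cells, held 4 CpGs. That of Lin28b (chr10:45470152-45470451, minus strand) held 8 at 39% GC, and that of Utf1 (chr7:139943606-139943905, plus strand) held 17.
Dnmt3l: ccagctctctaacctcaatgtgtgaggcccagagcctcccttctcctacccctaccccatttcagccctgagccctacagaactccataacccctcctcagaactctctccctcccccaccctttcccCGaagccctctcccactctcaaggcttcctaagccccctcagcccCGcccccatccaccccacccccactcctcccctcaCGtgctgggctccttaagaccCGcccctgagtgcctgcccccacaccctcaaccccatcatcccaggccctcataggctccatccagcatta
Lin28b: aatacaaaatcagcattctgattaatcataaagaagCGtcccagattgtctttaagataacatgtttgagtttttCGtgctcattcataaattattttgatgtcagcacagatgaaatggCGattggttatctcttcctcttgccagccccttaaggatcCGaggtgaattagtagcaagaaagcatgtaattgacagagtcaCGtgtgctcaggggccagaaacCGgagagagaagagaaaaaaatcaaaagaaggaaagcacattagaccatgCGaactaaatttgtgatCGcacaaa
Utf1: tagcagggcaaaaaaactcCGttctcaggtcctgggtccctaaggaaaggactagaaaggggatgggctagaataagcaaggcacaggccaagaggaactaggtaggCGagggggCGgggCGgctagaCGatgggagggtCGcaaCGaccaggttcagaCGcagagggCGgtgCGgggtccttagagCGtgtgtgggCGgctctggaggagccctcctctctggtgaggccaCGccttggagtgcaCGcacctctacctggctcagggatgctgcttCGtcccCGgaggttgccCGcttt
Over all 32619 promoters of the table the median was 7 CpGs and 53% GC, against 13.5 CpGs and 61.2% GC over the 18 entries of the members. The long Dnmt3a promoter stood at the 98.3rd percentile of all promoters in CpG count, the Dnmt3b promoter at 88.2 and the Dnmt3l promoter shown at 31.0.

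These promoters were searched on both strands for 5 short motifs. CTTTGAT, bound by LEF and TCF factors, and the POU octamer ATGCAAAT were in none of the 18 entries, and are in 3.76% and 1.75% of all promoters. The OTX motif TAATCC, present in 7.04% of all promoters, was in 1 entry, an internal Otx2 promoter at chr14:48665060-48665359, where its first base lay at position -211 from the start site on the opposite strand. The E-box CACGTG, in 7.2% of all promoters, was in 4 entries: the short Dnmt3a promoter at -80, the Dnmt3l promoter shown at -44, the Lin28b promoter at -49 and an internal Lef1 start at -79. TATAAA, in 13.7% of all promoters, was in 3 entries, among them Fgf5, where it lay at position 34, behind the start site. The letters alone say nothing of which factors bound there.

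H3K18la was called at member promoters in 15 of 20 combinations of gene and stem cell list (75%), against 35.6% over all protein-coding genes and 51.1% over those with a CpG-rich main promoter (within 500 bp of the main start, GC of 55% or more and a CpG ratio, observed over expected, of 0.6 or more). The 3 methyltransferase genes, Utf1, Otx2, Zic2 and Lef1 carried it in both media, Lin28b in mESC-ser only, and Fgf5 and Pou3f1 in neither. The median percentile of the called members was 86.5 in mESC-ser and 82.6 in mESC-2i, against 60.9 and 61.4 over all called genes.

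Among the transcription factors, Otx2 had H3K18la at the 66.97th percentile in mESC-ser and at 46.9 in mESC-2i. Its peaks followed its start sites: the pair of 3′ groups of start sites and the one at 48667508-48667644 had peaks within 500 bp in both media, whereas the most upstream start, at 48673819, had a peak only in mESC-ser, of 2089 bp at the 45.6th percentile. Zic2 went the other way, with a peak of 2897 bp at the 55.3rd percentile in mESC-ser and of 6728 bp at 82.6 in mESC-2i. Lef1 did so too, with percentiles of 90.3 in mESC-ser and 96.5 in mESC-2i, and here the shape differed more than the rank. In mESC-2i 1 peak of 16165 bp ran across the main start site of Lef1, while in mESC-ser a peak of 8873 bp ended 1601 bp before that site and a second of 2594 bp began 550 bp behind it. Pou3f1 had no H3K18la peak within 2 kb of its single start site, but in mESC-ser 1 peak of 4304 bp lay 9187 bp upstream at the 56.3rd percentile and another of 2683 bp lay 9603 bp downstream at 16.8, and mESC-2i had no H3K18la in the whole window. Fgf5 had none in its window in either medium.

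Utf1, a gene of 1324 bp, lay inside an H3K18la peak of 20770 bp in mESC-ser, at the 98.7th percentile of the list, and inside one of 9818 bp at 91.6 in mESC-2i. Both peaks reached the promoter of Gm16201, and the longer one also a promoter of Kndc1, though not its start site. Dnmt3l was covered from upstream of its main start to beyond its last group of start sites by 1 peak of 19398 bp in mESC-ser, at the 98.3rd percentile, and by a peak of 13617 bp at 84.7 in mESC-2i, which began 43 bp behind the main start. Dnmt3b had a peak of 5983 bp at 82.6 in mESC-ser and of 4014 bp at 45.4 in mESC-2i. For Dnmt3a the strongest promoter peak in both media was at the short isoform, with 10288 bp at 96.2 in mESC-ser and 8566 bp at 72.5 in mESC-2i. Within 2 kb of the long isoform's start the order was turned, with a peak of 1478 bp at 53.1 in mESC-ser, which began 761 bp behind the main start, and one of 4496 bp at 58.4 in mESC-2i, which began 24 bp behind it. Lin28b had 1 peak of 2166 bp over its RefSeq start in mESC-ser, at the 36.9th percentile, and none in mESC-2i.

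Read as a comparison of the media, 4 of the 7 members with H3K18la in both stood at least 10 percentile points higher in mESC-ser (Otx2, Dnmt3a, Dnmt3b and Dnmt3l), against 22.9% of all genes called in both. Zic2 alone stood at least 10 points lower, against 30.4% of those genes. The largest gap among the 7 was that of Dnmt3b, 37.2 points, and the median gap was 13.6 points, with -0.27 over all genes. Lin28b, called in mESC-ser only, is one of 4.79% of protein-coding genes with that pattern, and no member was called in mESC-2i only, as 9.18% of all genes were. All 7 gaps kept their sign when peaks were ranked by maximum in place of total signal, but that of Otx2 fell below 10 points, with 32.2 in mESC-ser and 28.6 in mESC-2i.

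**Figure D2:**
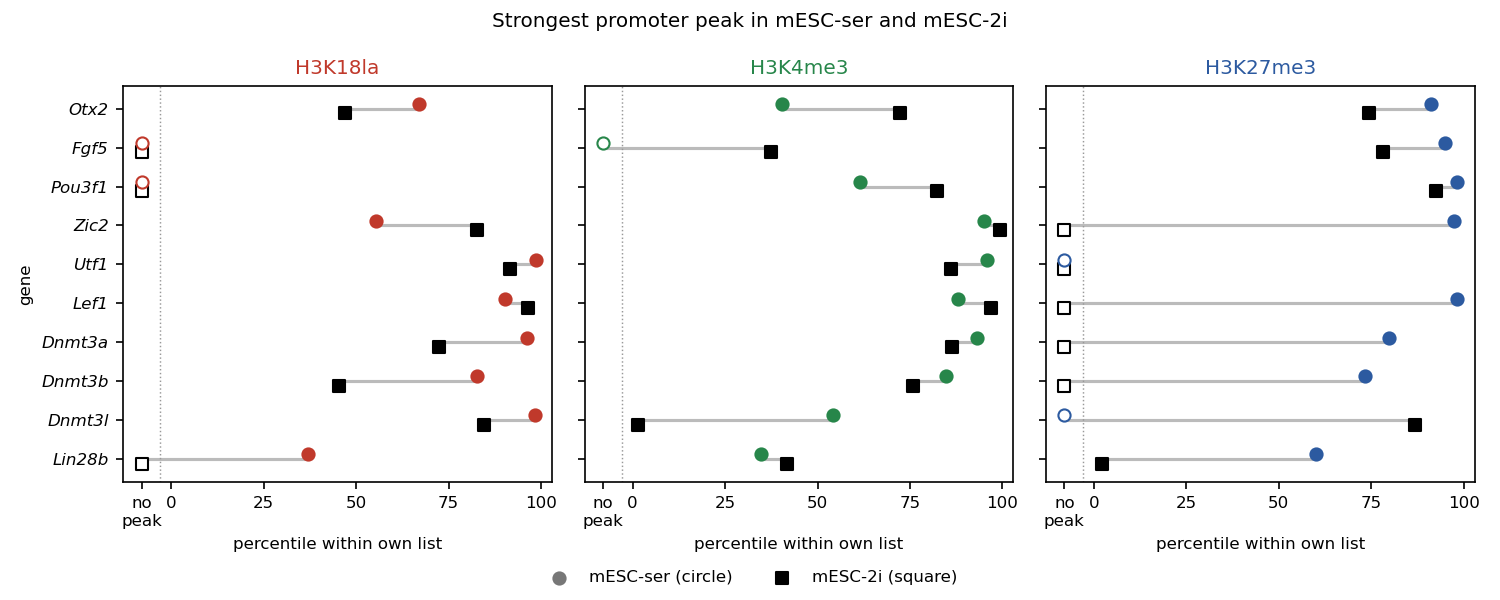
Percentile within its own list of the strongest promoter peak of each gene in mESC-ser (circles) and mESC-2i (squares) for 3 marks, with open symbols at the left where no promoter peak was called. For H3K18la the 3 methyltransferase genes lie further right in mESC-ser and Zic2 further right in mESC-2i, and for H3K27me3 4 genes have a peak in mESC-ser only and Dnmt3l in mESC-2i only.

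H3K4me3 was called at member promoters in 19 of 20 stem cell combinations, against 55.3% over all genes and 89.6% over CpG-rich ones. The exception was Fgf5 in mESC-ser, while in mESC-2i Fgf5 had a peak of 1861 bp over its start at the 37.5th percentile. That pattern, a call in mESC-2i only, was shared by 13.6% of all genes and the reverse by 0.558%, and the mESC-ser list had both the fewest peaks and the highest smallest signal of the series. For Dnmt3l the H3K4me3 peak lay at the middle start sites in both media, at percentile 54.2 in mESC-ser and 1.46 in mESC-2i, a gap of 52.7 points. It was the only member at least 10 points higher in mESC-ser, where 6.66% of all genes called in both were. Otx2 and Pou3f1 stood at least 10 points lower in mESC-ser, at 40.3 against 72.4 and at 61.4 against 82.4, a pattern of 56.2% of all genes. The Otx2 values come from different start sites. At the internal sites they were 40.3 in mESC-ser and 49.8 in mESC-2i, and at the most upstream site 29.9 and 72.4. Zic2, Utf1, Lef1, Dnmt3a and Dnmt3b had H3K4me3 between the 75.8th and the 99.2nd percentile in both lists. In Dnmt3a the short isoform led in mESC-ser, at 93.1 against 85.5 for the peak over the long one. In mESC-2i the short isoform was at 35.6 and the peak over the long one's start at 53.3, while the 86.4 of the gene came from a separate peak that began 655 bp behind the main start. In Lin28b the mark lay at the distal start sites in mESC-ser, from 15092 bp upstream of the RefSeq start, at 34.8, and in mESC-2i it lay there at 41.9 and over the RefSeq start at 2.55. H3K27ac, mapped in mESC-ser but not in mESC-2i, was called at 5 of 10 members, against 40.2% of all genes and 63.6% of CpG-rich ones. They were Utf1 at 96.5, Dnmt3a at 96.2, Dnmt3l at 94.4, Dnmt3b at 90.6 and Zic2 at 43.4, and for Dnmt3a the strongest peak, of 5946 bp, spanned an internal start site at 3885449 and ran to just before that of the short isoform.

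H3K27me3 was the mark for which most members, 5 of 10, were called in 1 medium only. It was called at member promoters in 13 of 20 stem cell combinations, against 24.8% over all genes and 26.4% over CpG-rich ones. Lef1, Zic2, Dnmt3a and Dnmt3b were called in mESC-ser only, that is 4 of 10 members against 8.58% of all genes. Dnmt3l was called in mESC-2i only, against 4.05%. Of the 4 members called in both, Otx2, Fgf5 and Lin28b stood at least 10 points higher in mESC-ser, against 38.7% of all genes called in both, and none at least 10 points lower, against 15.1%. Utf1 had no promoter H3K27me3 in either medium, and in mESC-ser none in its window.

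The Lef1 start lay under an H3K27me3 peak of 16496 bp at the 98.2nd percentile in mESC-ser, and mESC-2i had no H3K27me3 anywhere in the 153886 bp of the Lef1 window, where mESC-ser had 30315 bp. Zic2 in mESC-ser had 2 promoter peaks, 6727 bp across its main start at the 92.5th percentile and 8196 bp behind it at 97.3, whereas in mESC-2i the nearest peak began 6453 bp from the start. Dnmt3b had 12285 bp of H3K27me3 in its window in mESC-ser, with the promoter peak at the 73.4th percentile, and 0 bp in mESC-2i. At Dnmt3a, the 5062 bp peak of mESC-ser, at 79.9, ended 268 bp before the main start of the long isoform. Dnmt3l was the mirror image, with a peak of 12655 bp at the 86.8th percentile in mESC-2i that crossed the main start and covered the Aire promoter, and 0 bp in mESC-ser. Pou3f1 had the mark in both media, with 18067 bp at 98.2 in mESC-ser and 8805 bp at 92.5 in mESC-2i, as had Fgf5 with 7522 bp at 94.9 and 5852 bp at 78.2. Otx2 stood at 91.1 in mESC-ser and 74.4 in mESC-2i, and Lin28b, at its distal start sites, at 60.0 and 2.18.

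**Figure D3:**
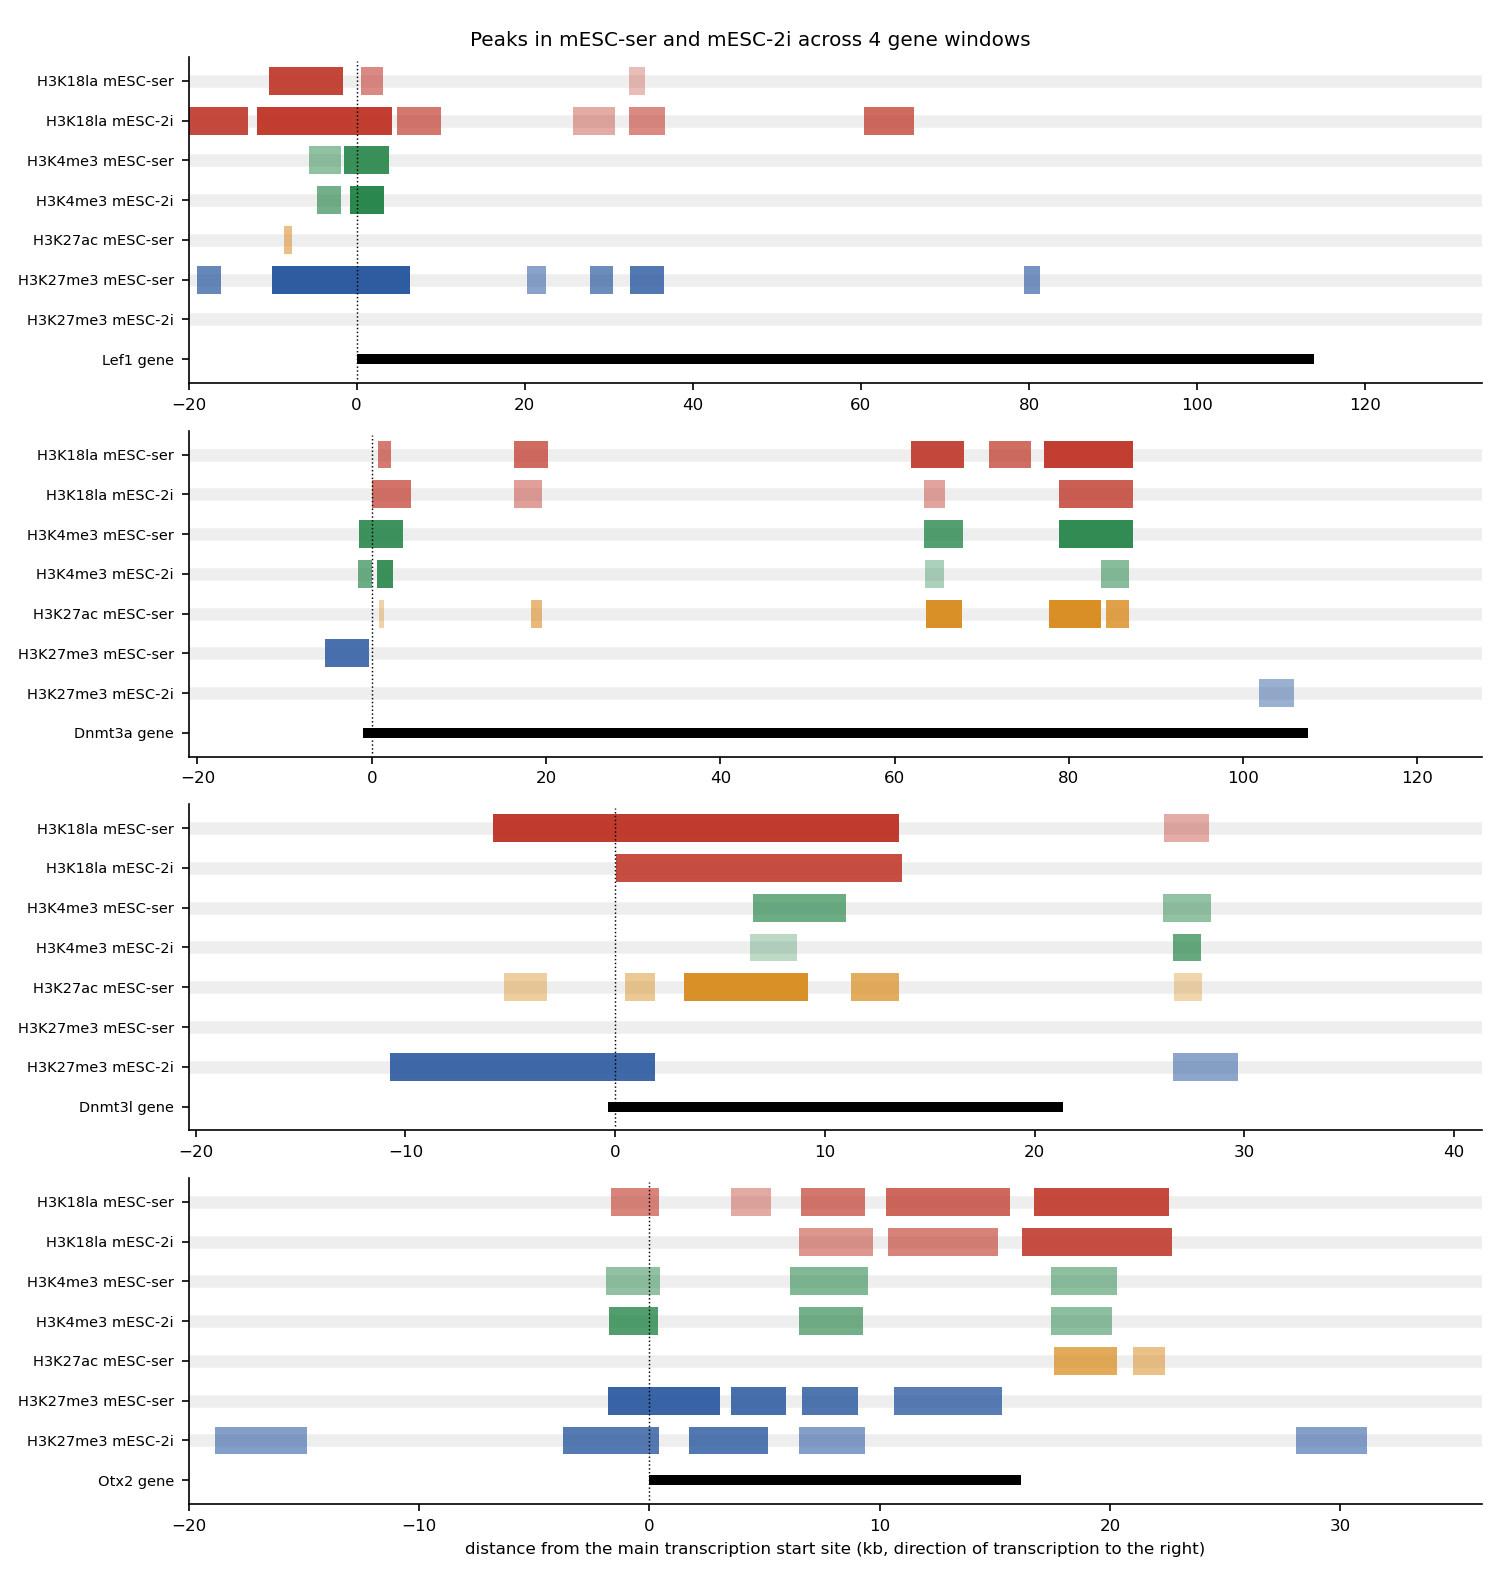
Peaks of 4 marks in mESC-ser and mESC-2i over the windows of Lef1, Dnmt3a, Dnmt3l and Otx2, against distance from the main start site in kb, with darker bars for higher percentiles and the gene as a black bar. At Lef1 the H3K27me3 track is empty in mESC-2i and the H3K18la peak is unbroken across the start, and at Dnmt3a the strongest promoter H3K18la peak lies far behind the main start, at that of the short isoform.

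H3K4me3 and H3K27me3 at promoters of 1 gene, the pattern called bivalent in stem cells, was found for 7 members in mESC-ser, against 12.8% of all genes, and for 5 in mESC-2i, against 14.2%. Counting only marks within 2 kb of the same start site, the numbers were 7 and 4, since in Dnmt3l the marks lay at different start sites. Otx2, Pou3f1 and Lin28b had both marks in both media. Zic2, Lef1, Dnmt3a and Dnmt3b had them in mESC-ser only, and Fgf5 and Dnmt3l in mESC-2i only.

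H3K18la and H3K27me3 also met at members. Both were called at promoters of 6 members in mESC-ser, against 8.32% of all genes, and of 2 members in mESC-2i, against 4.82%. With the same start site required, the counts were 5 and 2. In base pairs, 96.2% of the 13373 bp of H3K18la in the Lef1 window in mESC-ser lay inside an H3K27me3 peak, as did 80.2% in the windows of Zic2, 61.7% of Otx2, 58.2% of Dnmt3b and 53.1% of Pou3f1. The longer H3K18la peak in the Zic2 window, of 8214 bp, lay over the promoter of Zic5, and those in the Pou3f1 window lay only in its flanks. So in mESC-ser 5 of the 9 members with H3K18la in their window had at least 50% of it under H3K27me3, against 9.87% of all genes with H3K18la. With any shared base counted, these were the same 5 of 9 members, against 27.9% of those genes. Over the whole mESC-ser list the share of H3K18la bases under H3K27me3 was 8.79%. The other members with H3K18la, Utf1, Dnmt3a, Dnmt3l and Lin28b, shared 0 bp. In mESC-2i none of 7 members reached 50%, against 2.4% of all genes, but 3 of 7 shared some bases, against 12.1%: 19.8% at Otx2, 18.1% at Zic2 and 13.7% at Dnmt3l. H3K27ac in mESC-ser covered 30.3% of all H3K18la bases of the list. At the members without shared H3K27me3 it covered 60.5% of the H3K18la bases of Dnmt3l, 55.2% of those of Dnmt3a, 45.4% of those of Utf1 and 0% of those of Lin28b. At those with at least 50% under H3K27me3 it covered 46.6% at Dnmt3b, 43.2% at Zic2, 23.3% at Otx2, 6.89% at Lef1 and 0% at Pou3f1. A shared base does not show that both marks sat on the same allele or in the same cell.

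**Figure D4:**
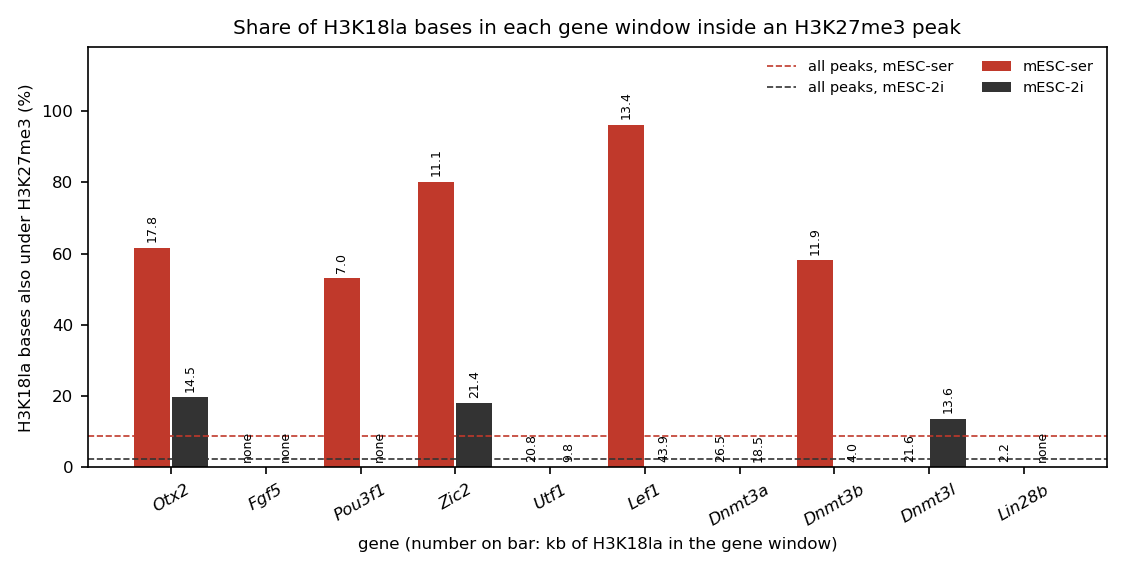
Share of the H3K18la bases in each gene window that also lie in an H3K27me3 peak (percent, bars) in mESC-ser and mESC-2i, with the kb of H3K18la printed at each bar and the share over all peaks of each list as dashed lines. Otx2, Pou3f1, Zic2, Lef1 and Dnmt3b exceed 50% in mESC-ser, and no gene does in mESC-2i.

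Over whole gene windows, the H3K18la lists differed in size, with 82.4 Mb covered in mESC-ser and 128.1 Mb in mESC-2i, and the median over 13737 genes with the mark in either list was a log2 ratio of -0.46 (mESC-ser over mESC-2i, each window increased by 500 bp). The median over the 10 members was 0.57, with 7 above 0, 2 below and Fgf5, which had none in either medium, at 0, where 27.4% of all genes were above 0. The median of the members was thus 1.03 above that of all genes. Pou3f1 was at 3.90, above 98.9% of all genes, Lin28b at 2.41, Dnmt3b at 1.46, above 90.8%, Utf1 at 1.04, above 89.2%, Dnmt3l at 0.65, Dnmt3a at 0.50 and Otx2 at 0.29, above 80.9%. Zic2, at -0.91, lay above 34.6% of all genes and Lef1, at -1.68, above 20.6%. The ratios of Pou3f1 and Lin28b have 0 bp on the mESC-2i side and rest on the added constant. For H3K4me3 the median was 0.21 over the members and -0.02 over all genes, and for H3K27me3 0.05 and -0.13, with 5 members above 0 and 5 below. With only the 5000 strongest peaks of each list the H3K18la median was 0 over the members and over all genes, and with 50 kb flanks the H3K27me3 median was -0.35 over the members and -0.28 over all genes.

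In the stem cell lists, 27 separate H3K18la regions lay in the 10 windows, 15 called in both media, 8 in mESC-ser only and 4 in mESC-2i only, and 13 of them overlapped no promoter of a member. The same counts over all stem cell regions are not given and the lists differ in size, so no direction is read from them. The strongest region off the promoters in Dnmt3a, chosen after its values were seen, spanned chr12:3868881-3875035 inside the gene, mostly intronic with short annotated exons in it, 61851 bp behind the main start. It stood at the 89.4th percentile in mESC-ser and 23.2 in mESC-2i, and carried H3K27ac at 94.3 and H3K4me3 at 70.1 in mESC-ser. The 300 bases around its highest H3K18la signal (chr12:3873665-3873964, plus strand, GRCm38.p6) contain the POU octamer on the minus strand, shown in capitals and present in 2.81% of 9632 such windows from mESC-ser H3K18la peaks more than 2 kb from any start site.
Dnmt3a internal peak: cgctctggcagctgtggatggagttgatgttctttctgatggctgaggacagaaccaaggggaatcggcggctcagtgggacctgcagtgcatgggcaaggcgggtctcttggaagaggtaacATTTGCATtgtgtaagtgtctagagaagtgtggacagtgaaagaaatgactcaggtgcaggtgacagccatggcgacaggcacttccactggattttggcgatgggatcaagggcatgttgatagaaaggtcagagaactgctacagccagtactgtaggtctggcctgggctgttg
Overlapping H3K18la peaks were also called in GAS at 89.3, PIM at 89.8, BMDM at 72.9 and ADIPO at 19.1, so H3K18la in this region was not particular to stem cells. The GAS peak, of 6970 bp, also lay within 500 bp of an internal start site at 3866191. The BMDM peak, of 1292 bp, was a promoter peak too, so both met only part of the region. Downstream of Otx2, a region of 6492 bp (chr14:48651135-48657626) that holds the snRNA gene Gm23469 was called at 87.8 in mESC-ser and 84.8 in mESC-2i, higher than any promoter peak of Otx2 for this mark. It had H3K4me3 in both media at 31.9 and 32.6 and H3K27ac in mESC-ser at 62.5, and no H3K18la in any other cell type. Upstream of Dnmt3b, a peak of 5934 bp at the 75.6th percentile was called in mESC-ser only, with H3K27me3 at 68.4 over it. Upstream of Lef1, a region of 14785 bp was 1 peak at 87.9 in mESC-2i and overlapped, outside the window, a peak in mESC-ser at 77.4, and in the gene body 2 regions, at 64.9 and 18.2, were called in mESC-2i and not in mESC-ser. The upstream region also overlapped H3K18la in MB at 49.8 and MT at 51.0, and the weaker region in the gene body did so in MT at 57.4 and GAS at 7.00.

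In the 6 other cell types H3K18la was called at member promoters in 7 of 60 combinations (11.7%), against 30.5% over all genes and 42.8% over CpG-rich ones. MB had none, in a list that called 11.1% of all genes. Of the 7 calls, 4 were at Dnmt3a, 2 at Dnmt3l and 1 at Lef1. Dnmt3a stood at 94.6 in GAS, 93.8 in PIM, 72.9 in BMDM and 10.9 in ADIPO, and the place of the strongest peak differed. In GAS it was an 8200 bp peak beginning 879 bp behind the main start of the long isoform, and in PIM a 3671 bp peak over an internal start at 3861021, beside the antisense gene Dnmt3aos. Neither was the short isoform promoter that led in stem cells. Dnmt3l was called at the last group of start sites, 78054835-78055335, in BMDM at 75.7 and in PIM at 87.8. PIM also had H3K4me3 at 39.2 and H3K27ac at 58.4 there. Lef1 had a peak of 2208 bp in MT at the 22.2nd percentile. Near Fgf5, MB and MT each had 2 peaks beyond the 3′ end of the gene, MB of 3131 and 2481 bp at 69.4 and 78.8, and MT of 3405 and 2472 bp at 69.0 and 71.7, in a window without H3K18la in the other 6 cell types.

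H3K27ac was called in 5 of 40 such combinations, against 43.9% of all genes and 67.5% of CpG-rich ones, with Dnmt3a called in all 4 cell types between the 64.3rd and 95.6th percentile and Dnmt3l in PIM. H3K4me3 was called in 15 of 20 combinations of GAS and PIM, against 61.8% of all genes and 91.4% of CpG-rich ones, and at low ranks: the median percentile of the called members was 50.4 in GAS and 39.2 in PIM, against 77.3 and 75.3 over all called genes. In GAS, Fgf5 had H3K4me3 at 55.9 under an H3K27me3 peak at 96.5, and 6 members had exactly these 2 marks, a combination of 6.77% of all genes. They were Otx2, Fgf5, Pou3f1, Zic2, Utf1 and Lef1.

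H3K27me3 was called in 39 of 50 combinations of member and differentiated cell type (78%), against 20.5% over all genes and 20.6% over CpG-rich ones. Otx2, Pou3f1, Zic2, Utf1 and Lin28b had it in all 5 cell types. Otx2 lay between the 97.2nd and the 99.9th percentile in each, with peaks between 20123 bp in MB and 42579 bp in GAS against 4875 bp in mESC-ser and 3420 bp in mESC-2i. Zic2 reached 53403 bp in MT and 49197 bp in BMDM, against 10128 bp in MB and 8196 bp in mESC-ser. Utf1, without promoter H3K27me3 in either stem cell list, lay under peaks of 55881 bp in BMDM, 18884 bp in PIM and 10326 bp in GAS, between the 94.5th and the 98.1st percentile, under a shorter one at 57.4 in MB, and in MT between a pair of peaks on both sides of its start, the stronger at 30.2. Lef1 had it in GAS, BMDM and PIM at or above 95.8, and in neither MB nor MT. Fgf5 had the same 3 cell types, at 96.5, 63.7 and 82.3. Of the methyltransferase genes, Dnmt3b was called in MT only, at 89.96, and Dnmt3a in MB, MT and PIM at or below 41.8, mostly upstream of the long isoform. Dnmt3l was called in MB, MT, GAS and PIM, from 8.65 in PIM to 93.7 in MT. Widths in MT and BMDM are read with the width of those lists: the median promoter peak was 24114 bp over the called members and 11576 bp over all called genes in MT, 21654 and 8935 bp in BMDM, 9928 and 4378 bp in GAS and 14497 and 7332 bp in PIM, while in MB the members were narrower, at 3934 against 4607 bp.

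**Figure D5:**
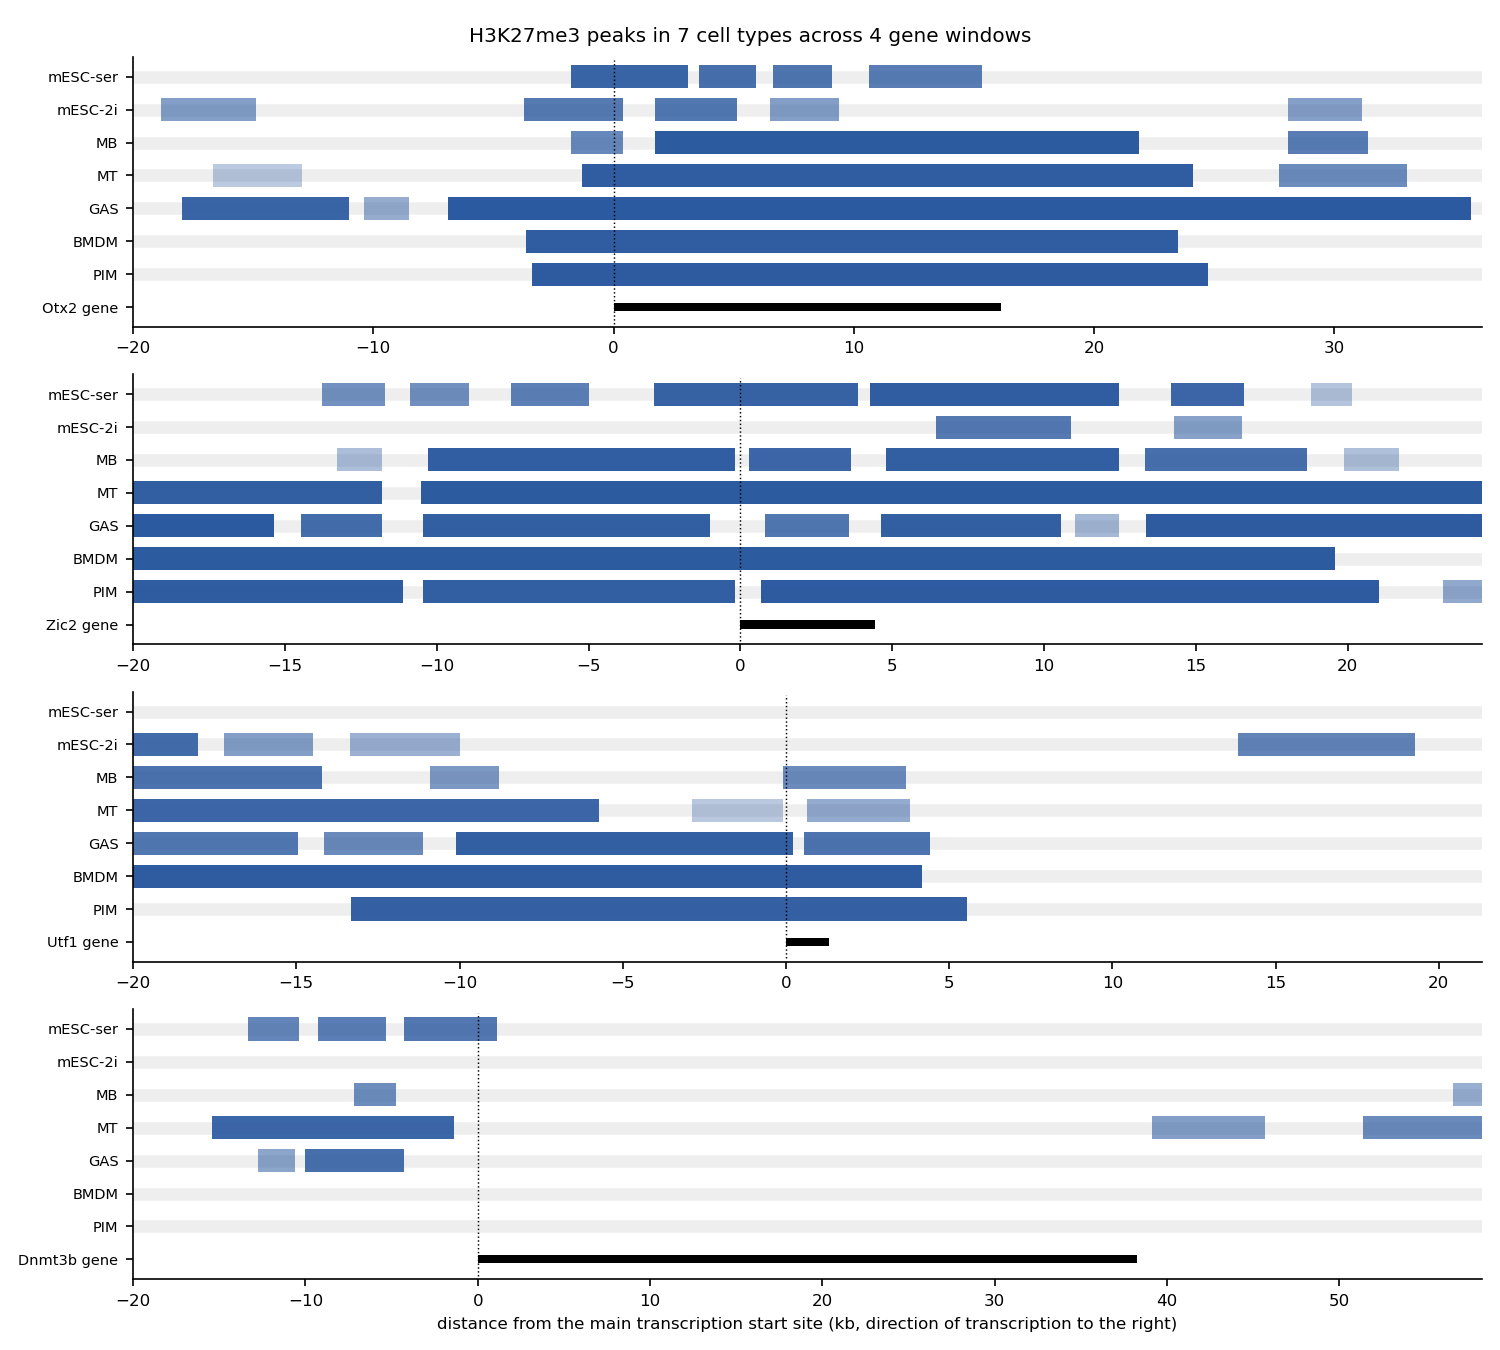
H3K27me3 peaks in 7 cell types over the windows of Otx2, Zic2, Utf1 and Dnmt3b, against distance from the main start site in kb, with darker bars for higher percentiles. In the 5 differentiated cell types long peaks lie over Otx2 and over or next to Zic2, with no peak across its main start in MB, GAS and PIM, Utf1 has no promoter peak in mESC-ser or mESC-2i, and Dnmt3b has one over its start in mESC-ser and just upstream of it in MT.

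Other genes of the same pathways were counted from lists of their known members. Of 21 further formative or primed genes, 13 had promoter H3K18la in both media, 3 in mESC-ser only, 3 in mESC-2i only and 2 in neither. Over all protein-coding genes 28.6% were called in both, 4.79% in mESC-ser only and 9.18% in mESC-2i only. Of the 13, 10 stood higher in mESC-ser and 3 lower, with a median gap of 1.25 points, against -0.27 over all genes called in both. How all genes split into higher and lower by any margin is not given, here or for the lists below. Called in mESC-ser only were Tcf15 at 66.1, Fgf8 at 63.2 and Fgf15 at 57.5, and in mESC-2i only Fst at 38.3, Eomes at 30.6 and Cdh2 at 12.4. The highest were Etv5, at 99.8 and 99.6, Lefty2, at 98.7 and 93.6, Nodal, the ligand that sustains the epiblast, at 98.6 and 97.4, and Foxd3 at 94.7 and 93.5. Lin28a, the paralogue of Lin28b, had H3K18la at 83.0 in mESC-ser and 54.7 in mESC-2i. For H3K27me3, 10 of the 21 were called in both, 8 of them higher in mESC-ser, 3 in mESC-ser only (Fst at 91.0, Foxd3 at 78.7, Zic5 at 53.3) and 2 in mESC-2i only (Spry4 at 64.8, Tcf15 at 36.1), where all genes gave 18.5%, 8.58% and 4.05%. The median gap of the 10 was 13.0 points, and all genes called in both also leaned to mESC-ser, with a median of 4.56. The highest were T, at 99.05 in mESC-ser and 76.6 in mESC-2i, Fgf8 at 98.6 and 95.1, and Eomes at 98.2 and 44.9. Among 5 partners in DNA methylation, all 5 had H3K18la in both media, 3 higher in mESC-ser and 2 lower. The maintenance enzyme gene Dnmt1 stood at 49.5 and 34.9, and its partner gene Uhrf1 at 82.9 and 97.8. Of the demethylase genes, Tet1 stood at 99.5 and 99.2, Tet2 at 84.9 and 99.5 and Tet3 at 58.6 and 39.3. H3K27me3 was called at Tet3 alone of these 5.

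The list for the LEF and TCF family and WNT signalling held 5 genes, all with H3K18la in both media, against 28.6% of all genes. Of these 1 stood higher in mESC-ser (Tcf7l1, at 97.4 against 87.6) and 4 lower. Their median gap was -9.35 points, against -0.27 over all genes called in both. Axin2 stood at 83.5 and 93.1, Tcf7 at 73.1 and 75.8, and Ctnnb1, the gene of beta-catenin itself, at 44.4 and 53.7. Tcf7l2 had the widest gap, at 39.5 in mESC-ser and 87.4 in mESC-2i. H3K27me3 was called at 3 of the 5 in mESC-ser only, Axin2 at 86.1, Tcf7 at 35.1 and Tcf7l2 at 28.7, against 8.58% of all genes, and at none in mESC-2i. Of 10 naive genes, all 10 had H3K18la in both media, against 28.6% of all genes. Of the 10, 3 stood higher in mESC-ser and 7 lower, with a median gap of -2.99 points, against -0.27 over all genes called in both. Esrrb stood at 99.9 in both, followed by Klf2 at 98.03 and 99.6 and Nanog at 98.7 and 99.3. H3K27me3 was called in mESC-ser only at 3 of the 10 naive genes, Tbx3 at 93.3, Prdm14 at 88.6 and Klf4 at 36.7, again against 8.58% of all genes, and in both media at Esrrb, at 95.5 and 96.6.

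For each member, the 2 protein-coding genes more than 100 kb away with the most similar promoter percentiles over the 24 lists were found, by mean absolute difference with 0 where no peak was called. The closest likeness was that of Fgf5 to Rspo2, a mean difference of 2.23 points, with Faxc next. Lists in which neither gene was called add no difference. Fgf5 and Rspo2 were each called in 7 of the 24, so their small value rests in part on shared absence. Pou3f1 was most like Irx6, at 3.48, and Tbc1d30, and Zic2 most like Gbx2, at 3.91, and Tfap2c. Utf1 was most like Trim71, at 5.18, and Pou5f1, at 6.09, Otx2 most like Prrt4 and Megf11, and Lin28b most like Ccdc3 and Nfe2l3. Lef1 was nearest to Fzd10, at 7.60, and Camk2n1. The methyltransferase genes had the largest differences: Dnmt3b was nearest to Stmn1, at 10.2, and Pdia5, Dnmt3a to Ubald2, at 14.2, and Sh2b3, and Dnmt3l to Slc17a9, at 17.6, and Ebi3. Dnmt3b was called in 9 lists, Dnmt3a in 19 and Dnmt3l in 14.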

How the data were processed

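CUT&Tag profiles of 41 samples were used as 24 deposited peak lists. Per the study's methods and processing notes, the authors trimmed reads with Trim Galore 0.6.6, aligned them to mm10 with Bowtie2 2.4.4, pooled the replicates of a group with bedtools 2.30 and called peaks without a control with SEACR 1.3, keeping a fixed top share of regions. Each deposited list gives the total signal of a peak, its summed coverage, and as a second deposited score its highest coverage. Neither is scaled to depth, so peaks were ranked within their list. A SEACR peak can join several nearby ones, which sets its width. Sample-level values were not used here, so samples entered through their group's list and nothing was tested. For H3K4me3 and H3K27me3 the mESC-ser lists were matched by exclusion of the 2i lists, since their headings name no medium.

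Promoters (2000 bp on each side of every GENCODE vM21 start site) and windows (gene body with 20000 bp on each side) were intersected with the peaks in Python 3.11.15 (numpy 2.4.6, pandas 2.3.3), after checking the interval counts against bedtools on simulated peaks. Start sites within 1000 bp were joined into groups and called within 500 bp. All members were named in every list. Other pathway genes were named when called in 1 medium only, when they had the largest percentiles of their list (at most 6 genes), or when a group of 5 or fewer was counted, and Lin28a and Dnmt1 after their values were seen. The start site groups and the 50% share were set after values were seen. The members and gene lists were chosen with earlier results of these data known.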

Additional observations from a re-analysis of the deposited data

How the results depend on the processing

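No paired analysis was possible because replicates were pooled before peaks were called, and for the same reason no replicate could be left out. Narrower promoters, coding transcripts alone and an overlap of at least 500 bp kept every promoter count within 1.5 times its value. With the main start site alone, the other cell types kept 3 calls of H3K18la (7 with all sites) and 3 of H3K27ac (5), those lost being at internal Dnmt3a and Dnmt3l start sites. With the 5000 peaks of largest signal per list, stem cell calls were 9 of H3K18la (15 in the full lists), 12 of H3K4me3 (19) and 8 of H3K27me3 (13), other cell types kept 4 of H3K18la, 1 of H3K4me3 (15) and 2 of H3K27ac, and 5 combinations of gene and medium had both H3K4me3 and H3K27me3 (12). The share of all genes called with this cut is not given, so these falls are not read as particular to the members. The median H3K18la window ratio was 1.22 (log2) with both lists cut to equal bases, where that of all genes was 0.19, and 0 with 5000 peaks each, as for all genes. The H3K27me3 ratio turned to -0.35 with 50 kb flanks (all genes -0.28) and was 0.38 with 5 kb flanks (0), 1.33 with equal bases (0.72) and 1.74 with 5000 peaks (0), so no direction is read from it. The cause was not tested.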
